A study of Mus musculus with 3 samples.

Results

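The genes described here are 10 genes of osteoclast differentiation, Acp5, Ctsk, Nfatc1, Dcstamp, Ocstamp, Tnfrsf11a, Oscar, Calcr, Atp6v0d2 and Itgb3, taken by gene name out of the 36870 gene names on the arrays and carried by 18 probes. They were measured in RAW264.7 cells, a mouse macrophage line that is widely used as an osteoclast precursor, on 1-colour Agilent arrays with 1 array per condition. The LPS group received lipopolysaccharide, the agonist of TLR4, for 3 h. The LOC1 + LPS and LOC3 + LPS groups received a tea leaf strain of Lactiplantibacillus plantarum, LOC1 or LOC3, before the same LPS challenge, for 12 h by the series labels and for longer by the methods. Every array analysed here is therefore from cells given LPS, and no array of unchallenged cells is analysed here. The osteoclast cytokine RANKL is not among the agents named by the labels or the methods. The arrays hold 1 cell line, so no donor or animal variation is included. With 1 array per group, the differences have no SD, test or p-value, and the error after each value is that of the scanner software for 1 spot.

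Osteoclasts are multinucleated cells of the macrophage lineage that dissolve bone. They form when RANKL binds RANK, the product of Tnfrsf11a, on a precursor that also receives M-CSF and signals from immunoreceptors such as OSCAR. NFATc1, the master transcription factor of the programme, then switches on genes for cell fusion, among them Dcstamp and Ocstamp, and for bone resorption, among them Acp5 and Ctsk. In macrophages LPS is known both to block and to promote this programme, depending on whether the cell met RANKL first.

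What each array read was a probe of 60 bases, and the last 30 bases of the probes of 6 of the 7 measured genes are shown because they give the stretch of each transcript that the values stand for. Capitals mark the poly(A) signal AATAAA, found in the probes of Acp5, Dcstamp and Ocstamp.
Tnfrsf11a: ccctgcctggttttggttttgtttcatttt
Oscar: aaatgttcctgcctcagcctcttgaatacc
Dcstamp: ccttaagcccaAATAAAtccttccttctat
Ocstamp: ctagacttctgacgtttagtgAATAAAaat
Acp5: aagtcttactgtcactgctattcAATAAAa
Ctsk: ctattcgtgattctttgacaaatttacatg
By the mm9 positions in the files these probes lie at chr1:107741892-107741951 on the plus strand for Tnfrsf11a, chr7:3561419-3561478 on the minus strand for Oscar and chr15:39592421-39592480 on the plus strand for Dcstamp. They lie at chr2:165220960-165221019 on the minus strand for Ocstamp, chr9:21931190-21931249 on the minus strand for Acp5 and chr3:95313165-95313224 on the plus strand for Ctsk.

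A signal well above background, as called by the scanner software, was found on at least 1 array for 7 of the 10 genes, and on all 3 arrays for 5 of them, Ctsk, Nfatc1, Ocstamp, Tnfrsf11a and Oscar. Calcr, Atp6v0d2 and Itgb3 had no probe well above background on any array. In intensity, a linear and unitless brightness, the 75th percentile of all probes was 555 with LPS, 513 with LOC1 + LPS and 516 with LOC3 + LPS. Of the 10 genes Tnfrsf11a alone exceeded it, which is a statement on probes and not on transcripts, because probes differ in their yield. Differences between arrays are given below as log2 intensity relative to that percentile. Where a probe missed the detection call, the dimmest detected signal of that array stood in for it (16.3, 14.5 and 19.8 in the order above), and the difference is then a bound. Where its own signal was higher than that, as for Dcstamp with LOC3 + LPS, the signal itself was used. The difference is then an estimate from an undetected signal and not a bound.

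Against LPS alone, 0 of the 7 measurable genes passed 2-fold with LOC1 + LPS and 0 of 7 passed it with LOC3 + LPS. Only 5 of the 7 were detected on both arrays in the second comparison. Acp5 and Dcstamp were not, and the detection limit kept their differences inside 2-fold, so whether they passed it was undetermined. Without a detection filter and floor Acp5 stood at -1.20 with LOC3 + LPS. Over all genes, 1261 of 20018 passed 2-fold with LOC1 + LPS, or 6.30% (2.49% higher and 3.81% lower), and 1217 of 19789 did so with LOC3 + LPS, or 6.15% (2.97% higher and 3.18% lower). Scaling the arrays on their median in place of the 75th percentile turned that split to 884 higher and 472 lower with LOC1 + LPS, and to 862 and 393 with LOC3 + LPS. With LOC1 + LPS the 7 differences ran from -0.55 to 0.57 with a median of 0.22, and with LOC3 + LPS from -0.95 to 0.56 with a median of -0.19, where the medians of all genes were 0.00 and 0.01. The sign of both medians depended on the processing: the first was -0.064 without a detection filter and floor, and the second was 0.020 in that setting, 0.31 among genes detected on both arrays and near 0, at -0.0083, under median scaling. The median size of the difference, without its sign, was 0.42 and 0.46 for the 7 genes, and 0.25 and 0.23 for all genes. Both comparisons share the LPS array. The spread of repeated spots sets the scale of these values: the log2 difference of probes printed 10 times had an SD of 0.05 for 269 bright probes, and an SD of 0.28 with LOC1 + LPS and 0.31 with LOC3 + LPS for only 8 dim ones, which covers spot noise and not the spread between cultures. Apart from Tnfrsf11a, the genes described here are dim.

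**Figure D1:**
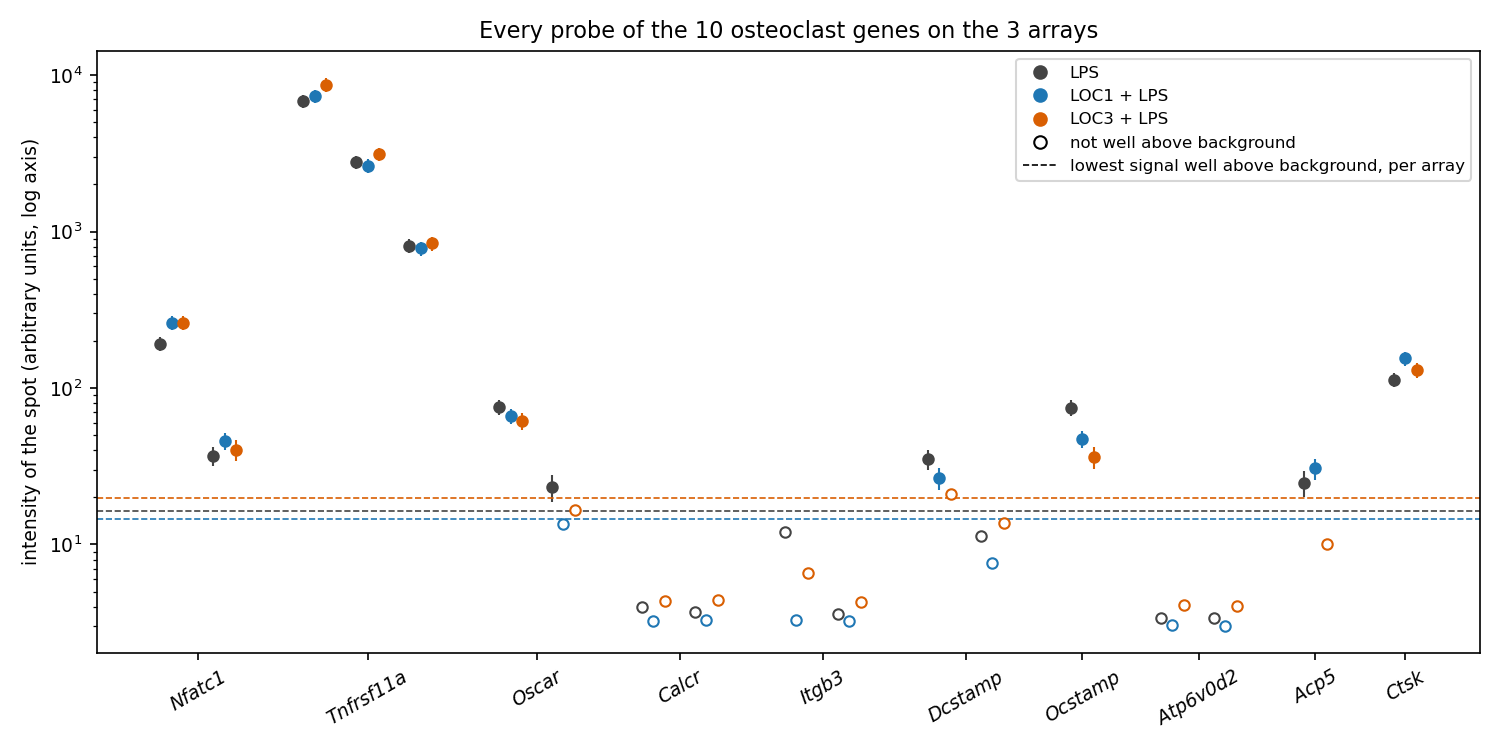
Intensity on a log axis (linear brightness, no unit) of every probe of the 10 osteoclast genes on the LPS, LOC1 + LPS and LOC3 + LPS arrays, with the scanner software's error on the filled points. Filled points are well above background, open points are not, and a dashed line per array marks its dimmest detected signal. The probes of Tnfrsf11a lie between 780 and 8696, and the probes of Calcr, Atp6v0d2 and Itgb3 are open on all 3 arrays.

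Nfatc1, the transcription factor at the head of the programme, was brighter on both arrays of lactobacillus-treated cells than with LPS alone. Its brighter probe read 191 ± 19.4 with LPS, 261 ± 26.3 with LOC1 + LPS and 261 ± 26.5 with LOC3 + LPS. The LPS array was thus the low one, and the other two were level, with a difference between them of 0.00 ± 0.21 on the log2 scale. Against LPS the difference was 0.56 ± 0.21 with either strain, a 1.48-fold and a 1.47-fold higher intensity. A second probe was dimmer, at 37.0 ± 5.28, 45.8 ± 5.68 and 40.3 ± 6.06 in the same order, and its differences of 0.42 ± 0.27 and 0.23 ± 0.30 had the same sign, the second of them within its error.

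Of the receptors, Tnfrsf11a was the brightest of the 10 genes. RANK is the receptor through which RANKL acts, and its main probe read 6803 ± 680 with LPS, 7344 ± 734 with LOC1 + LPS and 8696 ± 870 with LOC3 + LPS. The differences from LPS were 0.22 ± 0.20 and 0.46 ± 0.20 on the log2 scale, the first about the size of its error. The LOC3 + LPS array was the highest for all 3 probes of the gene. The size depended on the probe: a probe further along the same strand at chr1:107743752-107743811 (mm9) gave 0.04 and 0.27, and a probe at chr1:107710861-107710920, assigned by the files to another transcript, gave 0.06 and 0.16.

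Oscar encodes an immunoglobulin-like receptor that costimulates RANK signalling through Fc receptor gamma chains. It read 75.8 ± 8.42 with LPS, 65.9 ± 7.34 with LOC1 + LPS and 61.8 ± 7.55 with LOC3 + LPS. Both differences, -0.09 ± 0.23 and -0.19 ± 0.24, were within their errors, and the first changed sign under 3 other scalings or background corrections. Its second probe, at chr7:3562135-3562194 (mm9), was well above background only with LPS, at 23.3, against 13.5 and 16.7. Calcr, the calcitonin receptor of mature osteoclasts, read between 3.23 and 4.44 over both its probes and all arrays. Itgb3, the beta 3 chain of the vitronectin receptor by which osteoclasts hold on to bone, read 12.1 with LPS, 3.31 with LOC1 + LPS and 6.57 with LOC3 + LPS at its brighter probe, none of them well above background, so no fold is given.

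Of the 3 genes with a role in cell fusion, Ocstamp and Dcstamp could be measured and neither passed 2-fold. Dcstamp with LOC3 + LPS was not well above background and could not have passed it. Ocstamp, a membrane protein needed for precursors to fuse, read 74.95 ± 8.39 with LPS, 47.3 ± 5.78 with LOC1 + LPS and 36.0 ± 5.73 with LOC3 + LPS. The differences from LPS were -0.55 ± 0.24 and -0.95 ± 0.28 on the log2 scale, a 1.47-fold and a 1.94-fold lower intensity, and the second was the largest difference from LPS among the members detected on both arrays. LOC1 + LPS lay above LOC3 + LPS by 0.40 ± 0.29. The LOC3 difference lay just inside the 2-fold threshold, and its value moved across it or away from it with the processing: it was -1.001 when arrays were scaled on detected probes alone and -0.37 after a normexp background correction.

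Dcstamp, the partner of Ocstamp in fusion, read 35.2 ± 5.14 with LPS and 26.7 ± 4.29 with LOC1 + LPS, a difference of -0.29 ± 0.31 that is within its error. With LOC3 + LPS it read 21.1 ± 4.99 and was not well above background. That signal was 1.55-fold lower than with LPS, an estimate and not a bound. Its log2 difference of -0.64 was -0.45 under median scaling, -0.46 under quantile normalization and -0.13 with normexp. Its second probe was below the detection call on every array. Atp6v0d2, a proton pump subunit that also takes part in fusion, read between 3.03 and 4.10 over both probes and all arrays, without a detected signal.

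Of the resorption genes, Ctsk did not pass 2-fold with either strain and Acp5 did not pass it with LOC1 + LPS. For Acp5 with LOC3 + LPS there is only a bound, which does not place it inside 2-fold. Ctsk encodes cathepsin K, the protease that degrades bone collagen, and read 113 ± 12.0 with LPS, 154 ± 15.9 with LOC1 + LPS and 130 ± 13.8 with LOC3 + LPS. LPS alone was the lowest of the 3 arrays, and the differences were 0.57 ± 0.21 and 0.31 ± 0.22 on the log2 scale. Acp5 encodes tartrate-resistant acid phosphatase, the stain by which osteoclasts are recognised. It read 24.8 ± 4.62 with LPS, 30.6 ± 4.67 with LOC1 + LPS and 10.1 with LOC3 + LPS, where it was not well above background. It was higher than LPS by 0.42 ± 0.35 with LOC1 + LPS and at least 1.16-fold lower with LOC3 + LPS, a log2 bound of -0.22 that was -0.033 under median scaling and -0.022 under quantile normalization. By the bound between the strains, LOC1 + LPS was at least 1.55-fold above LOC3 + LPS, a log2 bound of 0.64 that was 0.30 under normexp. The difference of 0.42 between LOC1 + LPS and LPS was 0.14 under normexp.

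Between the strains 0 of 7 genes passed 2-fold, where 2.63% of all genes did so (509 of 19381). Only 5 of the 7 were detected on both arrays, and Acp5, which was not, stood at 1.62 without a detection filter and floor. LOC1 + LPS was above LOC3 + LPS for 6 of the 7, with Tnfrsf11a the exception at -0.23 ± 0.20, and the median difference was 0.26 with a range of -0.23 to 0.64, where all genes had a median of -0.01. The SD of dim repeated spots was 0.26 in this comparison, the size of that median. For Acp5 that difference is a bound, set by the detection limit of the LOC3 + LPS array, which was the highest of the 3. For Dcstamp it rests on the probe's own LOC3 + LPS signal of 21.1, which lay above that limit but was not well above background. Nfatc1 had a difference of 0.00, so its sign carries no direction.

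The log2 ratios deposited by the authors set the same arrays against unchallenged macrophages, and add the LPS effect itself. The table lists a probe on an array only past 2-fold. It lists 4006 of 56605 probes as higher with LPS (7.08%) and 3570 as lower (6.31%), and of the 18 probes of the osteoclast genes 1 as higher and 3 as lower. It lists 16.5% of all probes with LOC1 + LPS and 16.9% with LOC3 + LPS in either direction, and 3 of the 18 in each case. These ratios share the LPS array with the comparisons above and rest on 1 common reference, the unchallenged cells, for which the series design names 1 replicate.

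Nfatc1 was lower with LPS: its brighter probe had a log2 ratio of -1.93, a 3.81-fold lower intensity than in unchallenged cells. With LOC1 + LPS the ratio was -1.33 and with LOC3 + LPS -1.34, so all 3 arrays lay below the unchallenged cells and LPS alone the furthest. Its dimmer probe stood at -1.03 with LPS, 2.04-fold lower. That probe is blank for both strains, where ratios rebuilt from the intensities were -0.58 and -0.76.

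Dcstamp was lower than in unchallenged cells on all 3 arrays, by 2.52-fold with LPS alone. Its log2 ratios were -1.33 with LPS, -1.59 with LOC1 + LPS and -1.93 with LOC3 + LPS, the last from a signal not well above background. Ocstamp had a rebuilt ratio of -0.16 with LPS and -0.68 with LOC1 + LPS, and is listed with LOC3 + LPS alone, at -1.08.

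Acp5 is the 1 member listed as higher. Its log2 ratios were 1.93 with LPS and 2.38 with LOC1 + LPS, and the rebuilt ratio with LOC3 + LPS was 0.77. They stand on an implied intensity of 6.51 in unchallenged cells, which is under the detection limit, so these ratios are not minimum increases. Bounds follow when a detection limit takes the place of 6.51. With LOC3 + LPS, where the signal was itself not well above background, no bound can be given. The limit of the unchallenged array itself is unknown: with that of the LPS array the bounds were at least 1.52-fold with LPS and at least 2.08-fold with LOC1 + LPS, and with that of the LOC3 + LPS array, the highest of the 3, they were at least 1.13-fold and at least 1.55-fold. No probe of Tnfrsf11a, Oscar, Ctsk, Calcr, Itgb3 or Atp6v0d2 is listed on any array, and absence from the table does not by itself place a probe under 2-fold.

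**Figure D2:**
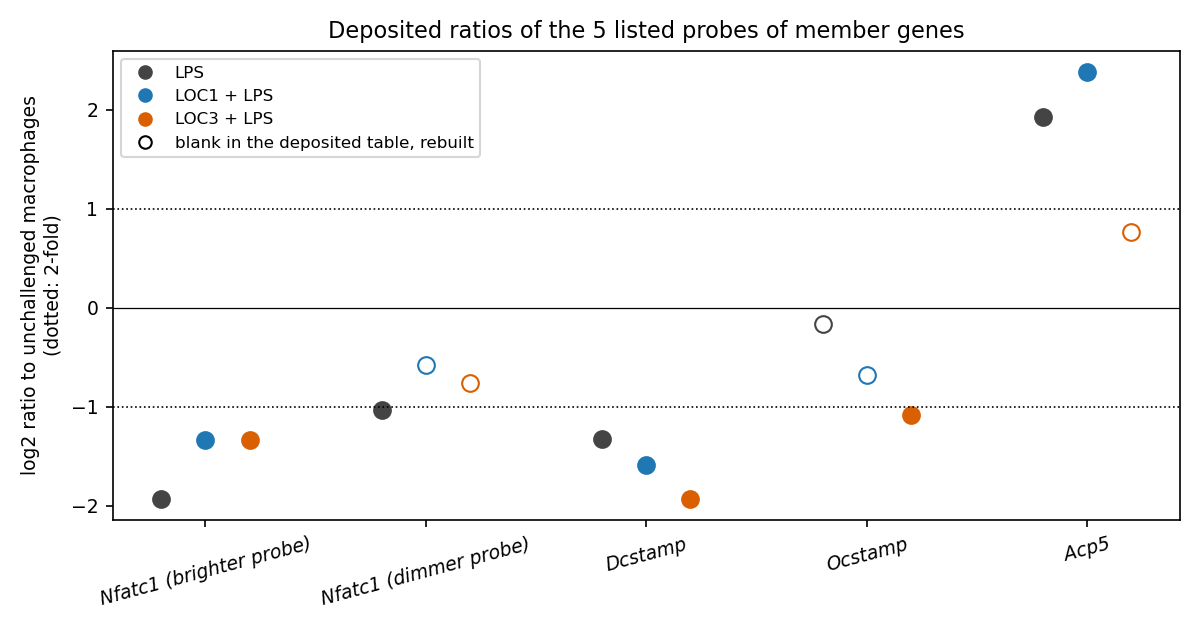
Log2 ratio to unchallenged macrophages of the 5 probes of osteoclast genes that the deposited table lists, for LPS, LOC1 + LPS and LOC3 + LPS; open circles are blank cells rebuilt from the intensities and the dotted lines mark 2-fold. Nfatc1 and Dcstamp lie below 0 on all 3 arrays, and the Acp5 ratios, from 0.77 to 2.38, rest on an unchallenged signal under the detection limit.

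The rest of the osteoclast programme was read from 7 lists of genes with 89 names on the arrays, of which 82 could be compared. Against LPS, 4 genes were past 2-fold higher and 4 lower with LOC1 + LPS, and the same numbers held with LOC3 + LPS, or 9.76% of the 82 in each case against the 6.30% and 6.15% of all genes. With both strains, 3 of the higher and 4 of the lower genes were the same, in comparisons that share the LPS array.

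RANK and costimulatory signalling had 2 of 21 genes higher and 0 lower with LOC1 + LPS, and 1 higher and 0 lower with LOC3 + LPS, with medians of -0.06 and -0.08. Syk, the tyrosine kinase that relays the costimulatory immunoreceptors, read 3116 with LPS, 7214 with LOC1 + LPS and 6353 with LOC3 + LPS, differences of 1.32 and 1.13 on the log2 scale. Its other probes gave 0.60 to 1.34 and 0.05 to 1.497. Blnk, an adaptor downstream of Syk, read 24326, 47314 and 42864, differences of 1.07 and 0.92, the second of which was 1.10 under median scaling, so that 2 genes of the list then passed 2-fold with LOC3 + LPS. Traf6, the adaptor that carries the RANK signal, read 298, 300 and 304, with 0.13 for either strain, although other probes of the gene went as low as -0.93 and -0.71. Tnfsf11, which encodes RANKL, and Tnfrsf11b, which encodes its decoy receptor osteoprotegerin, were not well above background on any array.

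Of 14 transcription factors, 1 was higher and 1 lower with each strain, with medians of -0.14 and -0.04. Both were Fos family members. Fosl1, the Fra-1 subunit of AP-1, read 88.9 with LPS, 201 with LOC1 + LPS and 174 with LOC3 + LPS, differences of 1.29 and 1.08 that fell under 2-fold, at 0.89 and 0.74, with normexp correction. Fosl2, the Fra-2 subunit, read 2731, 944 and 1202, differences of -1.42 and -1.08, and the second was -0.90 under median scaling. Fos itself, without which osteoclasts do not form, had differences of -0.38 and -0.04. Spi1, which encodes the lineage factor PU.1, had -0.52 and -0.46, and Mitf, a partner of PU.1 at osteoclast genes, had 0.01 and 0.05 at its brightest probe and as low as -1.46 and -1.70 at others.

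Of 11 genes known to restrain osteoclast formation, 1 was higher and 1 lower with LOC1 + LPS, 2 were higher and 1 lower with LOC3 + LPS, and the medians were 0.04 and 0.07. Id1, an inhibitor of helix-loop-helix factors, read 7879 with LPS, 1353 with LOC1 + LPS and 1923 with LOC3 + LPS. Its differences of -2.43 and -1.93 were the largest in the 7 lists by the brightest probe of each gene. A dimmer probe of a gene in the signalling list reached -2.29 and -2.12. Nr4a1, a nuclear receptor induced early after stimulation, read 1627, 3107 and 3269, differences of 1.05 and 1.11. Bcl6, a repressor of NFATc1 target genes, had 0.86 and 1.22, the first of which was 1.08 under median scaling, and its other probe gave -0.55 and -0.42. Irf8, a repressor that keeps macrophages from the osteoclast fate, had -0.68 and -0.39 (-1.83 and -1.57 at its other probe).

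Of 13 resorption and acid secretion genes, 1 was lower and 0 higher with each strain, with medians of 0.17 and 0.22. The 1 was Car2, the carbonic anhydrase that supplies protons for acid secretion, which read 3730 with LPS, 967 with LOC1 + LPS and 1190 with LOC3 + LPS, differences of -1.84 and -1.54. Its deposited log2 ratios to unchallenged cells were 2.83 with LPS, 1.03 with LOC1 + LPS and 1.32 with LOC3 + LPS, so all 3 arrays lay above the unchallenged cells. Tcirg1, the proton pump subunit of osteoclasts, differed from LPS by 0.34 and 0.28, and Mmp9, a gelatinase, by -0.41 and -0.28.

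Of 13 adhesion and podosome genes, 1 was lower with each strain, Gsn, which encodes the actin-severing protein gelsolin and read 25122 with LPS, 9451 with LOC1 + LPS and 10165 with LOC3 + LPS, differences of -1.30 and -1.20. The medians of that list were -0.14 and 0.02. None of the 7 other fusion genes passed 2-fold, and their medians were -0.11 and 0.09. None of the 3 genes of the M-CSF axis passed it either. Csf1r, the M-CSF receptor, had differences of -0.89 and -0.70, and its other probe gave -1.03 and -0.94.

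**Figure D3:**
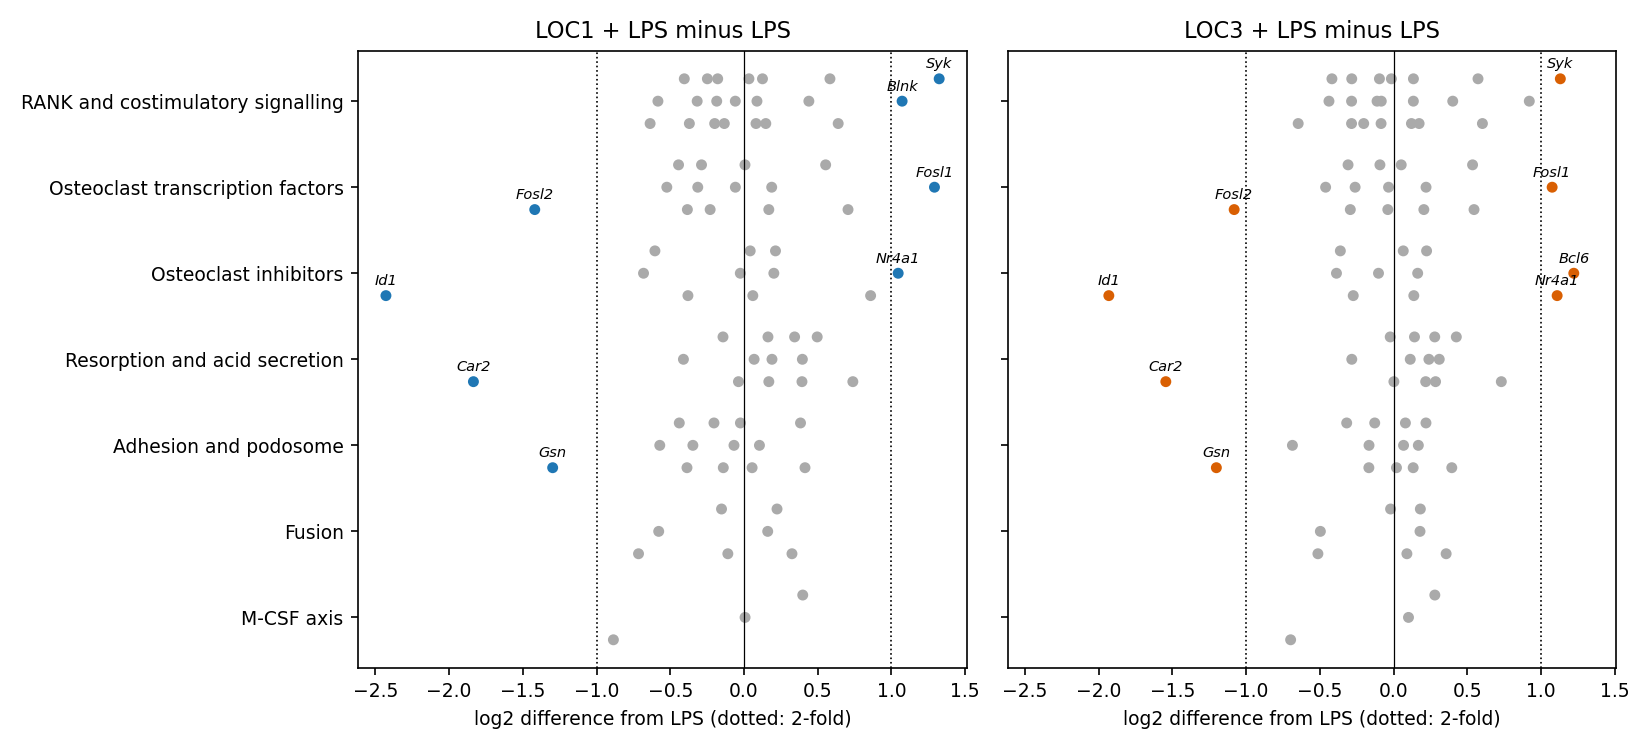
Log2 difference in normalised intensity against LPS of the genes in each of the 7 osteoclast pathway lists, for LOC1 + LPS and LOC3 + LPS; each point is a gene, genes past 2-fold are coloured and named, and the dotted lines mark 2-fold. Height within a list carries no value. Most genes lie inside 2-fold, with Id1 at -2.43 and -1.93 the furthest from 0.

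Markers of cell identity were read on the same arrays. All 7 macrophage markers on the arrays were well above background on each of the 3, with a summed intensity of 383012 to 478304. Of 10 mature osteoclast markers, 8 of which are genes described above, 7 were well above background with LPS, 7 with LOC1 + LPS and 5 with LOC3 + LPS, and the defining markers Calcr and Itgb3 were undetected on all 3. The summed intensity of that list, which Mmp9 and Car2 lead, was 9363 with LPS, 4981 with LOC1 + LPS and 5510 with LOC3 + LPS. Of 9 osteoblast and osteocyte markers 3 were detected on each array, Sp7, Alpl and Col1a1, with a summed intensity over the list of 353 to 385, and Runx2, Bglap, Ibsp and Sost were not. Of 6 epithelial markers 1, Epcam, was detected, with LPS only and at an intensity of 20.7. In a bulk sample, fewer expressing cells and less RNA per cell cannot be told apart.

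The upstream sequence of 3 members is shown because Acp5, Ctsk and Oscar are known targets of NFATc1, whose gene was measured above. Each is the 250 bases before the outermost RefSeq start (GRCm38.p6, a build other than that of the probe positions), read on the gene's strand, at chr9:22135747-22135996 on the minus strand for Acp5, chr3:95498960-95499209 on the plus strand for Ctsk and chr7:3616158-3616407 on the minus strand for Oscar. Capitals mark the NFAT core GGAAAA, which reads TTTTCC on the other strand.
Acp5: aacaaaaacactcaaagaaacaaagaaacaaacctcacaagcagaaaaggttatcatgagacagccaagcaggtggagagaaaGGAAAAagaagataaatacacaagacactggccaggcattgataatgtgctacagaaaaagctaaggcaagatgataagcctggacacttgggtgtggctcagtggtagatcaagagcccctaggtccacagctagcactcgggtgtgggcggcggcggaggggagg
Ctsk: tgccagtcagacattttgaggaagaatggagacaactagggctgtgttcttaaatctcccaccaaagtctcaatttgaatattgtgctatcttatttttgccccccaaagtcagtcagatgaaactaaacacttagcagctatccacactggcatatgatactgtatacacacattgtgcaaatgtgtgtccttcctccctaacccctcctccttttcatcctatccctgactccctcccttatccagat
Oscar: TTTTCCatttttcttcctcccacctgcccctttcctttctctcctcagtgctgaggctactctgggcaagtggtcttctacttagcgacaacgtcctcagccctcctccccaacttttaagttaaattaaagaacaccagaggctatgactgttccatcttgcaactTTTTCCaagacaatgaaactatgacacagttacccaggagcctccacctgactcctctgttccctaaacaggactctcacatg
The window of Acp5 holds 1 such core, that of Oscar 2 and that of Ctsk none, where 20.4% of the 32851 mouse promoter windows in the RefSeq table hold at least 1. RefSeq promoter windows were found for 5 of the 10 genes. None of the windows printed held AP-1 (TGANTCA), PU.1 (GAGGAAGT), MITF (CACGTG or TCATGTG) or NF-kB (GGGACTTTC) letters on either strand, letters that 6.75%, 2.44%, 9.09% and 0.289% of all windows hold. The RefSeq table has 2 further windows for Acp5, at other starts, which hold no NFAT core, and 1 of them holds 1 MITF match. A match of letters is a description and not a binding site.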

How the data were processed

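RNA of 3 conditions was hybridised to 1-colour Agilent arrays, 1 per condition. The authors deposited the intensity of each spot, background-subtracted by Feature Extraction (12.0.3.1 in the file headers, another version in the methods) and not normalized between arrays, with its error and detection flags. They also deposited log2 ratios to unchallenged macrophages, which list a probe only past 2-fold and are otherwise blank. Blank cells were rebuilt from the other columns after a constant shift per array of -0.03 with LOC1 and -0.04 with LOC3. For the 4910 probes listed on all 3 arrays, 0 residuals exceeded 0.01.

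Outlier spots (135, 118 and 133 on the LPS, LOC1 and LOC3 arrays) were left out. Log2 intensities were set relative to each array's 75th percentile. The brightest probe stood for a gene, which was compared where either array detected it. A threshold of 2-fold replaced a test, and the number of arrays limits the precision. The members, lists and named genes were chosen with earlier results of these data known. Named genes were all members, the list genes past 2-fold and a fixed set of regulators, 1 of which is not reported here. Python 3.11.15, numpy 2.4.6, pandas 2.3.3, matplotlib 3.10.9 and limma 3.58.1 (R 4.3.3, normexp with an offset of 50) were used, and the procedure was tested on simulated data. Promoters are from RefSeq. Median scaling, quantile normalization, scaling on detected probes, normexp, other detection filters, the mean of probes, outlier spots kept, a 3-fold threshold and the deposited ratios were the alternatives.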

Additional observations from a re-analysis of the deposited data

Results flagged for a closer look

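Acp5 lay on opposite sides of LPS alone with the 2 strains, with a log2 difference of 0.42 with LOC1 + LPS and -0.22 with LOC3 + LPS. The difference between the strains was not tested, since each is 1 array, and the LOC3 + LPS value is a bound from a signal not well above background.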

How the results depend on the processing

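Of 154 alternative values of single members, 145 stayed within the spot error, 9 moved and 3 were past 2-fold. The sign changed for Oscar with LOC1 alone, to 0.13 under median scaling, 0.06 under quantile normalization and 0.01 under normexp. No gene of the 10 passed 2-fold, except that scaling on detected probes gave 1 with LOC3 against LPS (Ocstamp, at -1.001). No filter and no floor gave 1 in each comparison. With LOC3 against LPS and LOC1 against LOC3 it was Acp5, at -1.20 and 1.62, where only the LOC3 signal was not well above background. With LOC1 against LPS it was Itgb3, not well above background on either array. Without filter and floor the member median with LOC1 was -0.064, and among genes well above background on both arrays that with LOC3 was 0.31, since Dcstamp and Acp5 leave it. The count of all genes past 2-fold moved more, in the order LOC1 against LPS, LOC3 against LPS and LOC1 against LOC3: 421, 409 and 153 with normexp, 3839, 3779 and 2814 without filter and floor, and 410, 398 and 283 at 3-fold. With both arrays above background it was 711 with LOC3 and 105 between the strains. Median scaling shifted the median of all genes to 0.22 with LOC1 and 0.20 with LOC3. It turned the split of higher against lower genes from 499 and 762 to 884 and 472 with LOC1, and from 588 and 629 to 862 and 393 with LOC3. Quantile normalization gave 629 and 610, and 702 and 509. Ctsk and Nfatc1 both stood at 0.78 with LOC1 under median scaling, and Ocstamp at -0.20 with LOC1 under normexp. With 1 array per condition no array could be left out. The cause of the other moves was not tested.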
